A study of Mus musculus with 70 samples.

Results

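B cells of the blood were compared between resilient (RES) mice, which had gone through chronic social defeat stress (CSDS) and kept a normal interest in other mice, and unstressed control (CON) mice. The comparison took the libraries labelled as B cells in these conditions, 6 of CON mice and 5 of RES mice, which is 11 of the 70 libraries of the series. A further library labelled as RES B cells, number 52, was left out because it carried T cell markers in place of B cell markers. The mice were C57BL/6J animals of 7 to 8 weeks of age. For CSDS each mouse met an aggressive CD-1 male for 10 minutes a day on 10 days and spent the rest of the day behind a partition in the aggressor's cage, while CON mice lived in pairs across such a partition. A social interaction (SI) test followed 24 hours after the last defeat, and stressed mice with an SI ratio of at least 1 were RES and the others susceptible (SUS). All mice were housed singly after the last defeat. Cells were sorted by flow cytometry from trunk blood after lysis of red cells, with antibodies against CD11b, Ly6C, Ly6G, B220 and CD90.2. Brain stands as the source in the sample labels, whereas the study's methods describe blood. No label names a mouse, so p-values measure the spread between these libraries.

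B cells make antibodies and present antigen to T cells. They leave the bone marrow as immature, transitional cells, which carry the surface protein CD93 and lose it as they mature into follicular, marginal zone or B-1 cells. Stress hormones act on them directly, since B cells carry the glucocorticoid receptor, and glucocorticoids are known to reduce immature B cells and to redirect B cells from blood to bone marrow.

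The label was checked first. In the 17 B cell libraries used in the fit (6 CON, 5 RES and 6 SUS), Cd79a, a signalling chain of the B cell receptor, lay between 1146 and 1956 CPM (the count of a gene scaled to a fixed library total), and Ms4a1, which codes for CD20, between 437 and 1198 CPM. Cd3e, a chain of the T cell receptor complex, was between 0 and 1.76 CPM in these libraries. Library 52 had 5.76 CPM of Cd79a, 0.113 CPM of Ms4a1 and 412 CPM of Cd3e. The 11 libraries of the comparison held 31141149 to 42074062 counts. Ribosomal RNA took 5.57% to 41.0% of the counts and differed widely within both groups, with CON libraries 35 and 41 and RES libraries 40 and 49 at the low end. None of 5 measures of library quality (total counts, mitochondrial, ribosomal RNA and immunoglobulin gene shares and detected genes) passed a two-sided exact permutation test between the groups, where the smallest p was 0.177 (adjusted over the 5 measures 0.862). CON library 38 had the highest mitochondrial share, 18.4%. All levels below are CPM scaled by the normalization factors of the fit, so that libraries with different ribosomal RNA shares can be set side by side.

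No gene passed the test between RES and CON B cells. edgeR's quasi-likelihood test called 0 of 17620 genes (0%) at a Benjamini-Hochberg adjusted p under 0.05 and a log2 fold change beyond 1, and the smallest adjusted p was 0.589. At an unadjusted p under 0.05 there were 560 genes, 318 of them higher in RES mice (1.8% of the genes tested) and 242 lower (1.37%). In 39 genes (0.221%) every RES library lay above every CON library, and in 24 genes (0.136%) every RES library lay below. The median log2 fold change of all genes tested was 0.001. limma voom with quality weights also called 0 genes, with 803 genes at an unadjusted p under 0.05. DESeq2 on the same 17 libraries called 11 genes, 0.056% of the 19654 genes to which it gave an adjusted p, and had 955 genes at an unadjusted p under 0.05. Of these 11 genes, 7 were higher in RES mice (Ccl5, Il2rb, Ncr1, Nkg7, Col14a1, Mocos and Gm30698) and 4 were lower (Cd93, Serpinb7, Wnt10a and Gm42889). Gm30698, Mocos, Wnt10a, Col14a1 and Gm42889 had means of 17.8, 15.7, 15.5, 15.4 and 11.3 counts over the 11 libraries, and a single library held 83.2% of the counts of Gm30698, 60.0% of those of Wnt10a and 52.0% of those of Mocos. Gm30698 was not among the genes tested in edgeR.

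How small a difference could be seen varied with the level of a gene. Of the 7720 genes at 10 CPM or more, 7538 (97.6%) had a 95% interval of the log2 fold change that lay inside 1 in both directions. The median standard error of the log2 fold change was 0.13 at 100 CPM or more, 0.18 between 10 and 100 CPM, 0.46 between 1 and 10 CPM and 1.28 under 1 CPM. The genes of the last class therefore carry little information, and the steepest fitted fold changes were found there.

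**Figure D1:**
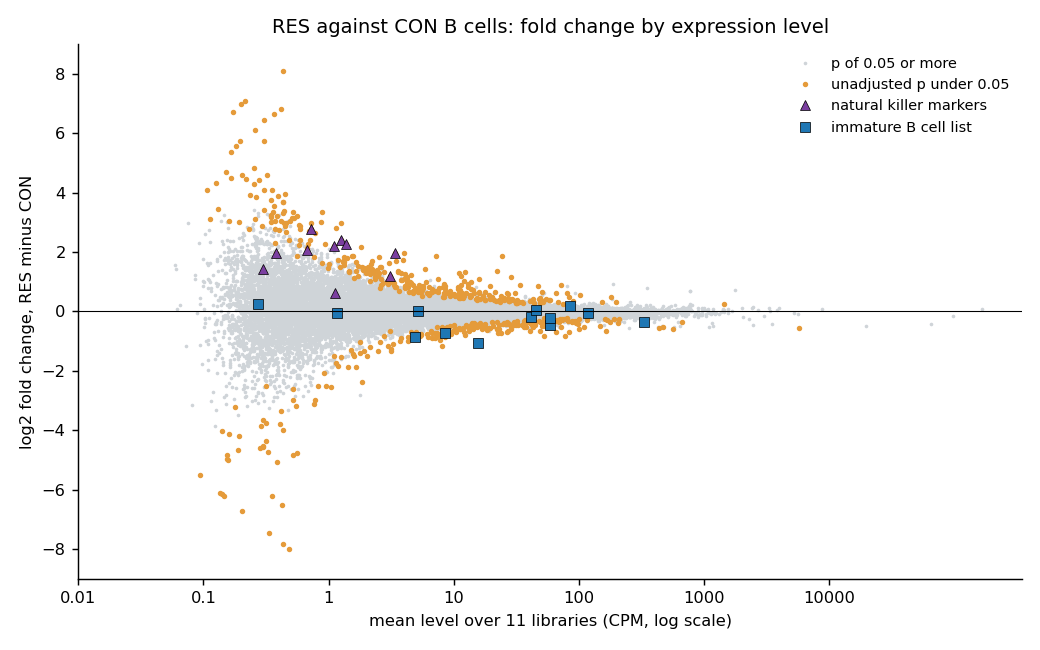
Log2 fold change between RES and CON B cells (vertical axis) against the mean level over the 11 libraries (horizontal axis, CPM on a log scale), 1 point per gene of 17620 tested; orange points have an unadjusted p under 0.05, triangles are natural killer markers and squares the immature B cell list. The spread narrows as the level grows, and the triangles lie above 0 at low levels, around 0.3 to 3 CPM, while Cd93 is the lowest square, at a log2 fold change of -1.07.

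Of the genes with the smallest unadjusted p, Cd93 came first. It codes for a lectin-like membrane protein of early B cells that is also known as the antigen of the antibody AA4.1, and lies on chromosome 2 (chr2:148436640-148443563, minus strand, GRCm38). Its level in CON mice was 13.6 CPM at the lowest, 21.9 at the median and 23.7 at the highest, and in the RES libraries 37, 40, 43, 46 and 49 it was 14.9, 7.83, 7.97, 8.96 and 9.53 CPM. The groups overlapped only through CON library 47, the lowest of its group, and RES library 37, the highest. The means were 20.6 ± 3.62 CPM in CON mice (SD, n = 6) and 9.84 ± 2.93 CPM in RES mice (SD, n = 5). The log2 fold change was -1.07 (standard error 0.21, 95% interval -1.51 to -0.63), with an unadjusted p of 3.86e-05 and an adjusted p of 0.589 in edgeR. DESeq2 gave -1.08 with an adjusted p of 0.00512. Among the libraries with a low ribosomal RNA share (2 of each group) the difference of the mean log2 CPM was -1.35, and among the others (4 CON, 3 RES) it was -0.88. The split reuses the libraries in which Cd93 was picked for its small p, so these values are a description only.

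The list that holds Cd93 had members on both sides of 0. Of the 13 tested genes of immature and transitional B cells, 9 were lower in RES mice and 4 higher, by at most 0.25. Of the lower genes 3 had an unadjusted p under 0.05 (all genes 1.37% lower at that p), Cd93 among them, which was picked for its small p. None passed the adjusted test, and the list median was -0.18. The genes described next are mostly from the lower side. Bmf, a BH3-only protein that promotes cell death, was at 67.3 ± 7.40 CPM in CON and 49.5 ± 14.5 CPM in RES mice (log2 fold change -0.44, standard error 0.15). Myb, a transcription factor of lymphoid progenitors, was at 6.18 ± 3.03 and 3.37 ± 1.16 CPM (log2 fold change -0.87, standard error 0.38). Sox4, needed early in B cell development, had a log2 fold change of -0.73 (0.38), and Cd24a, which codes for a surface glycoprotein high on transitional cells, one of -0.36 (0.18), both with unadjusted p above 0.05. Vpreb3, a chaperone of the immature B cell receptor, stood at -0.18 (0.14). Rag1, a subunit of the recombinase that assembles receptor genes, was at 20 to 88 counts in CON and 22 to 85 counts in RES libraries, so that the ranges nearly coincided.

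**Figure D2:**
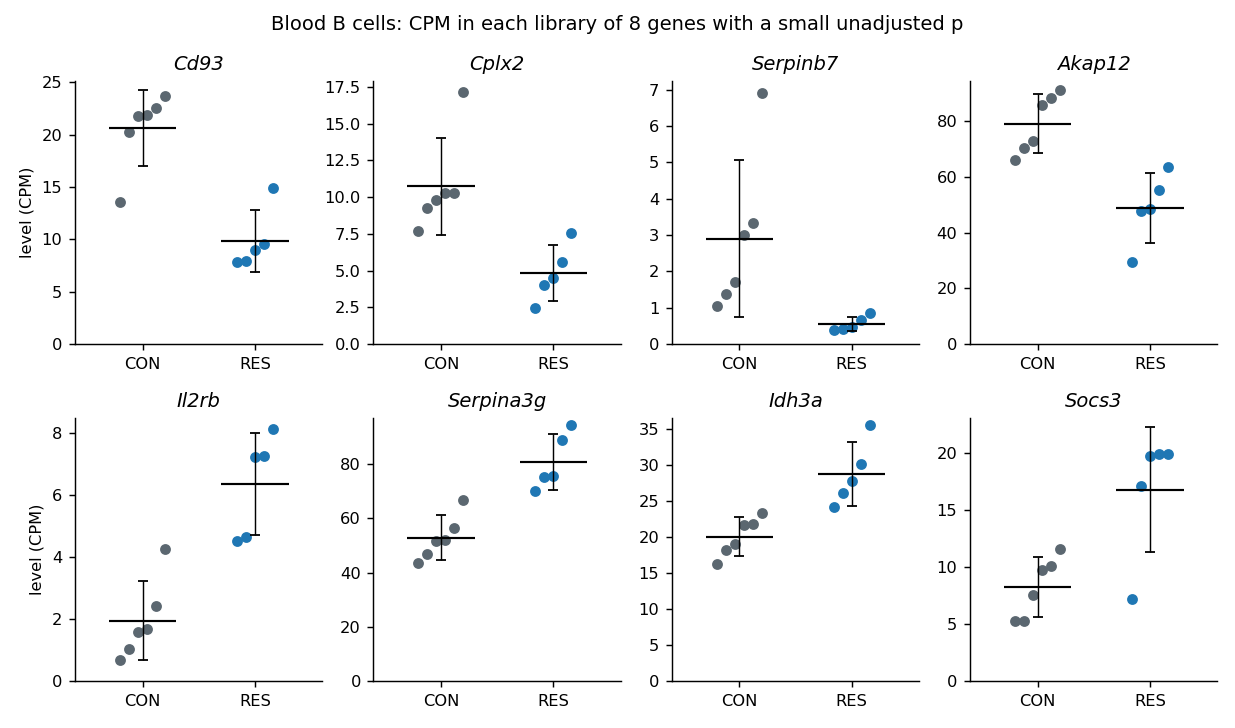
Level in CPM (vertical axes, each from 0) of 8 genes with a small unadjusted p in the 6 CON and 5 RES libraries, 1 point per library, with the group mean (line) and SD (bar). Cplx2, Serpinb7 and Akap12 in RES libraries lie below every CON library, Il2rb, Serpina3g and Idh3a lie above every CON library, and Cd93 and Socs3 overlap through single libraries.

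Among the other genes that were lower in RES mice, 5 of the 12 with the smallest p had no overlap between the groups, a description only, since these genes were picked for a small p (all genes 0.136%). Cplx2 codes for complexin 2, a regulator of vesicle fusion (chr13:54371349-54383917, plus strand). In CON mice it lay between 7.68 and 17.2 CPM with a median of 10.0, and in the RES libraries, in the order used for Cd93, at 4.02, 2.47, 4.51, 7.58 and 5.56 CPM. Every RES library was thus below the lowest CON library, the highest of them by a small margin. For Cplx2 edgeR gave a log2 fold change of -1.15 (standard error 0.29) and an adjusted p of 0.886.

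Akap12, a scaffold protein that binds protein kinase A, lay between 66.1 and 91.3 CPM in CON mice (median 79.4) and at 55.3, 47.8, 29.6, 63.6 and 48.5 CPM in the RES libraries (log2 fold change -0.69, standard error 0.18, adjusted p 0.886 in edgeR). Cited2, a coregulator that binds the acetyltransferases CBP and p300, lay between 43.1 and 58.1 CPM in CON mice and at 36.3, 24.0, 33.7, 36.3 and 41.0 CPM in RES mice (log2 fold change -0.54, standard error 0.15, adjusted p 0.968 in edgeR). In both genes the groups were separate, and over the fits that omit 1 library the log2 fold change lay between -0.80 and -0.56 for Akap12 and between -0.61 and -0.44 for Cited2. Serpinb7, a serine protease inhibitor of the serpin family, was low throughout, with 1.06 to 6.91 CPM in CON and 0.387 to 0.845 CPM in RES mice. Mettl7a1, a methyltransferase-like gene, lay at 6.40 to 10.9 CPM in CON and 2.97 to 5.64 CPM in RES mice. The 7 remaining genes of this direction (Gfod1, Nedd4, Kdelr1, Ceacam1, Fbxo25, St13 and Cd93 itself) had overlapping groups, and the log2 fold changes of the first 6 ranged from -0.79 in Gfod1 to -0.45 in Kdelr1, a receptor that returns proteins to the endoplasmic reticulum.

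On the other side, the genes with the smallest p that were higher in RES mice were of a mixed kind. Where their groups did not overlap, this is a description only, since these genes were picked for a small p (all genes 0.221%). Serpina3g, a serine protease inhibitor that is induced in activated lymphocytes, lay between 43.4 and 66.9 CPM in CON mice (median 51.8). In the RES libraries it was at 75.7, 88.9, 94.7, 75.2 and 70.2 CPM, each above the highest CON library. Its log2 fold change of 0.61 had a standard error of 0.16 and an adjusted p of 0.927 in edgeR. Idh3a, a subunit of the mitochondrial isocitrate dehydrogenase of the citric acid cycle, was also separate, with 16.3 to 23.3 CPM in CON mice and 35.6, 30.1, 24.2, 26.1 and 27.8 CPM in RES mice (log2 fold change 0.52, standard error 0.15, adjusted p 1 in edgeR). Cpt1a, which brings long-chain fatty acids into mitochondria for oxidation, lay between 50.3 and 83.4 CPM in CON mice and at 75.2, 108, 104, 86.0 and 117 CPM in RES mice, so that RES library 37 alone fell within the CON range (log2 fold change 0.61, standard error 0.15, adjusted p 0.886 in edgeR).

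Cytokine signalling genes were also among them. Socs3, a feedback inhibitor of JAK-STAT signalling, lay between 5.23 and 11.6 CPM in CON mice, and at 17.1, 7.22, 19.7, 19.9 and 19.9 CPM in RES mice. RES library 40 stood within the CON range and the other 4 RES libraries above it. The fit gave a log2 fold change of 1.02 with a 95% interval of 0.47 to 1.58 and an adjusted p of 0.953 in edgeR. SUS mice, compared with the same CON libraries, stood at 24.7 ± 8.98 CPM (n = 6), and there the adjusted p was 0.0483. Il9r, the receptor of interleukin 9, was at 34.6 ± 14.4 CPM in CON and 62.3 ± 15.3 CPM in RES mice (log2 fold change 0.85, standard error 0.22, adjusted p 0.886 in edgeR). RES libraries 43 and 46, at 87.6 and 63.4 CPM, lay above the CON range of 18.1 to 60.4 CPM and the other 3 inside it. Pgm1, a phosphoglucomutase gene, had a log2 fold change of 0.82 (0.24), and Dtx4, an E3 ubiquitin ligase of the Deltex family that lies next to Mpeg1 on chromosome 19, one of 1.30 (0.38).

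The remaining genes of that direction are known from cells other than B cells. Ccl5, a chemokine of natural killer (NK) and memory T cells, was at 0.469 to 3.67 CPM in CON and at 3.57, 8.93, 11.0, 5.38 and 4.56 CPM in RES mice. Il2rb, the beta chain of the receptors for interleukins 2 and 15, was at 0.679 to 4.24 CPM in CON and at 7.21, 7.24, 8.10, 4.51 and 4.64 CPM in RES mice, with no overlap. Their log2 fold changes were 1.97 (standard error 0.41) and 1.72 (0.39), with adjusted p of 0.589 and 0.742 in edgeR, and 0.0134 and 0.0342 in DESeq2. Gzma, which codes for a granzyme, Fcer1g, a signalling chain of Fc and NK receptors, and Mpeg1, which codes for the pore-forming perforin-2 of phagocytes, had log2 fold changes of 1.98 (0.47), 1.62 (0.45) and 1.09 (0.32). Markers of other blood cells were therefore read as whole lists.

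All 10 NK cell markers had a positive log2 fold change, 7 of them at an unadjusted p under 0.05 (all genes 1.8% higher at that p) and 3 with every RES library above every CON library (Ncr1, Prf1 and Gzmb; all genes 0.221%), and the list median was 2.02. Gzma, picked above for its small p, is among the 7, so this count is a description only. None of the 10 passed the adjusted test in edgeR. Ncr1, the activating receptor NKp46, was at 0.0671 to 1.19 CPM in CON mice and at 1.52, 3.61, 2.40, 2.1 and 1.5 CPM in RES mice. Prf1, which codes for perforin, was at 0.854 to 2.54 CPM in CON mice and at 4.33, 4.50, 6.75, 2.84 and 3.75 CPM in RES mice. The summed level of the list was 4.03 to 10.8 CPM in CON, 10.7 to 29.3 CPM in RES and 18.2 to 48.6 CPM in SUS mice. CON library 38 and RES library 49 were the pair by which CON and RES mice just overlapped, and 0 to 3 of the 10 markers had no count in a CON library against 0 to 1 in a RES library. In bulk libraries, more cells of a type and more RNA per cell cannot be told apart.

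Monocyte markers were higher too. Their summed level was 50.7 to 73.3 CPM in CON and 79.0 to 154 CPM in RES mice, so the groups did not overlap. Nr4a1, which is also on the list of early activation genes, enters this sum, so the sum need not be RNA of monocytes alone. Of the 10 tested, 9 had a positive log2 fold change (median 0.67). Among these, 4 had an unadjusted p under 0.05 (all genes 1.8% higher at that p). Mpeg1, picked above for its small p, is among the 4 and enters the sum. Lyz2, the lysozyme of myeloid cells, was at 24.5 ± 6.41 CPM in CON and 44.7 ± 16.7 CPM in RES mice. Red cell genes were higher in 9 of 9 (median 0.78), 3 of them at an unadjusted p under 0.05 (all genes 1.8%). Their summed levels were 1242 to 7080 CPM in CON and 3163 to 8948 CPM in RES mice. Single libraries decided the size: without RES library 40 the median was 0.48 with 0 genes under that p, and without CON library 38 it was 1.17 with 8. T cell markers summed to 15.3 to 24.8 CPM in CON and 17.0 to 32.0 CPM in RES mice, and neutrophil markers to 0.201 to 2.74 and 1.45 to 3.23 CPM. Of the tested markers, 9 of 13 were higher for T cells and 4 of 4 for neutrophils. In both lists 0 had an unadjusted p under 0.05. Plasmacytoid dendritic cells, which also carry B220, were read from 12 markers, several of which B cells express as well. Their sums were 721 to 900 CPM in CON and 753 to 913 CPM in RES mice. Because B cell expression enters these sums, they can hide a change in the dendritic cells. Of the 11 markers tested, 10 were higher in RES mice (median 0.28), 1 at an unadjusted p under 0.05 (all genes 1.8%). The platelet markers lay at 29.1 to 41.8 CPM in CON and 39.8 to 55.4 CPM in RES mice. Of these 10 markers, 8 were higher (median 0.43), 1 at an unadjusted p under 0.05 (all genes 1.8%). Conventional dendritic cell markers summed to 5.43 to 10.6 CPM in CON and 6.04 to 11.9 CPM in RES mice. Of the 7 tested, 5 were higher and 2 lower (median 0.59, range -1.42 to 2.37), with 0 at an unadjusted p under 0.05. Cd93 is also known from myeloid and endothelial cells, and the part of such cells in its level was not tested.

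A fit with the mean log2 CPM of the NK markers as a covariate, added after seeing the data, changed many of these values. The covariate itself differed between the groups, so that it can take up part of any difference between them. The log2 fold change moved from 1.97 to 0.65 in Ccl5, from 1.72 to 1.09 in Il2rb and from 1.09 to 0.66 in Mpeg1. Gzma went from 1.98 to -0.21 and Ncr1 from 2.40 to 1.13, but both are members of the covariate, so a smaller value was built in. Fcer1g went from 1.62 to 1.19 and Socs3 from 1.02 to 1.39. Serpina3g, with every RES library above the CON range, went from 0.61 to 0.17. Among the genes lower in RES mice, Cplx2 went from -1.15 to -0.73, Ceacam1 from -0.49 to -0.097 and Bmf from -0.44 to -0.25, whereas Cd93 went from -1.07 to -1.38 and Fbxo25 from -0.73 to -1.13. Of the genes of other lists, Bcl6 went from -0.41 to -0.14, Egr1 from -0.89 to -0.48, Sgk1 from -0.40 to -0.24, Bhlhe40 from -0.54 to -0.24 and Usp18 from 0.82 to 0.43. Ms4a1 went from -0.34 to -0.72, Sdc1 from -0.67 to -1.22, Chordc1 from -0.70 to -1.39 and mt-Co3 from -0.57 to -1.003. No gene was called in this fit. Because the covariate and the groups went together, this fit is no test of the part of NK cells in the differences. The part of other cells was not tested either.

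**Figure D3:**
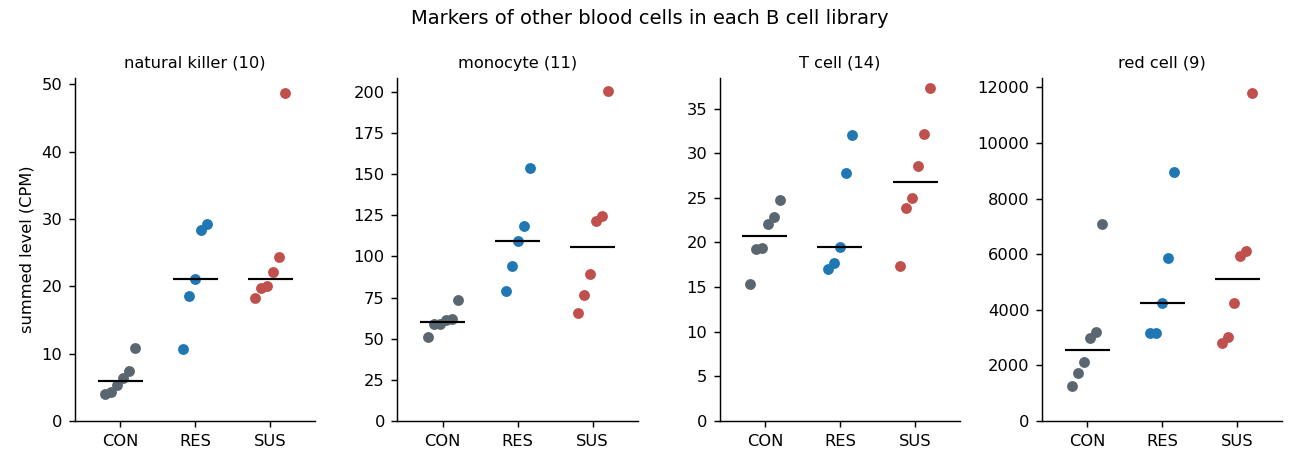
Summed level in CPM (vertical axes, each from 0) of the markers of natural killer cells (10 genes), monocytes (11), T cells (14) and red cells (9) in each B cell library of CON, RES and SUS mice, 1 point per library with the median as a line. The natural killer sum lies between 10.7 and 29.3 CPM in RES libraries against 4.03 to 10.8 CPM in CON libraries.

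The identity genes of mature B cells were measured precisely and were close in both groups. Of 26 genes of the B cell receptor complex and B lineage, 0 had an unadjusted p under 0.05, with log2 fold changes from -0.34 to 0.12 and a median of -0.06. Cd79a was at 1362 ± 58.6 CPM in CON and 1288 ± 182 CPM in RES mice (log2 fold change -0.08, 95% interval -0.34 to 0.18). Ms4a1 was at the lower end, with 684 ± 226 CPM and 539 ± 120 CPM (log2 fold change -0.34, 95% interval -0.72 to 0.04). The 14 genes of mature follicular B cells ranged from -0.11 to 0.21, again with 0 under that p. Over both lists the 95% intervals lay between -0.72 and 0.57 on the log2 scale.

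Lists of the other B cell subsets held few genes with a small p. Among 18 genes of marginal zone, B-1 and age-associated B cells, 14 were higher in RES mice (median 0.23, and 0.14 without CON library 38). Of the higher genes 3 had an unadjusted p under 0.05 (all genes 1.8% higher at that p), and without RES library 43 the number was 1. Anxa2, an annexin of B-1 and memory cells, was at 6.20 ± 1.97 CPM in CON and 11.3 ± 3.49 CPM in RES mice (log2 fold change 0.86, standard error 0.31). With the NK marker covariate its log2 fold change was 0.073, and that of Plac8, another member, went from 0.37 to 0.0030. Tbx21, which codes for T-bet of age-associated B cells and also of NK cells, was at 0.206 to 1.89 CPM in CON and 1.23 to 4.96 CPM in RES mice. Of 19 genes of plasma cells and secretion, 3 were lower and 1 higher at that p (all genes 1.37% lower and 1.8% higher). Edem1, which clears misfolded proteins from the endoplasmic reticulum, had separate groups, 63.8 to 85.3 CPM in CON and 60.5, 59.2, 63.2, 50.4 and 56.1 CPM in RES mice (log2 fold change -0.33, standard error 0.12). Sdc1, the plasma cell marker CD138, was at 16.0 ± 5.55 and 10.0 ± 3.23 CPM. Jchain, which links IgM and IgA units, ranged from 1 to 245 counts in CON and 23 to 244 counts in RES libraries, too wide a spread to place its log2 fold change of -0.34 (standard error 0.87).

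Immunoglobulin genes of constant regions, 12 tested, had a median of -0.01. Ighm, the heavy chain of IgM, was at 3172 ± 283 CPM in CON and 2839 ± 320 CPM in RES mice, and Igkc, the kappa light chain, at 2157 ± 257 and 1903 ± 151 CPM, with unadjusted p of 0.195 and 0.146. Of 199 variable genes 132 were lower in RES mice (median -0.14). An unadjusted p under 0.05 was found in 7, all of them lower (all genes 1.37% lower at that p). Variable genes are near copies of one another, so the reads behind each are uncertain.

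**Figure D4:**
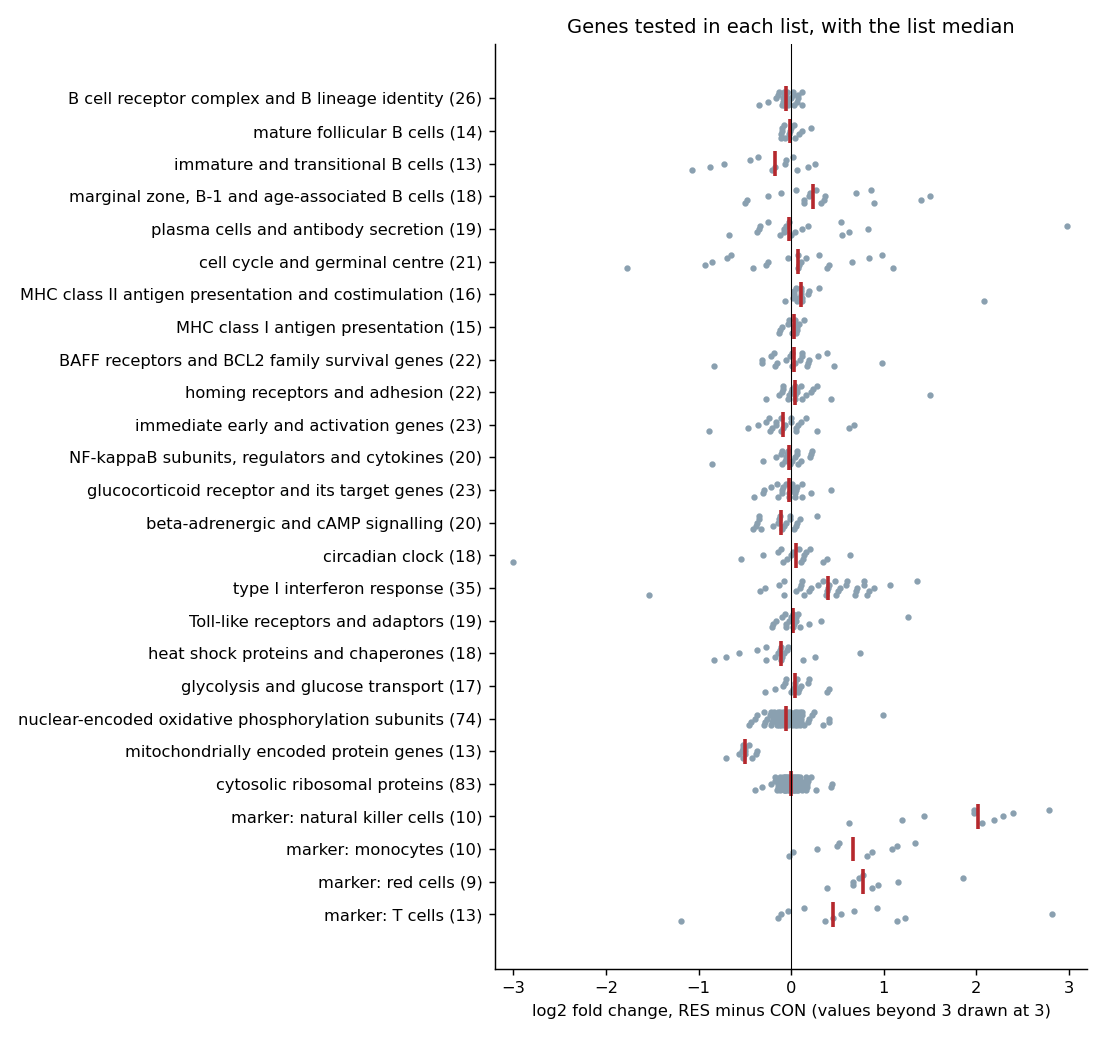
Log2 fold change between RES and CON B cells (horizontal axis) of each tested gene (point) in 26 lists of genes (vertical axis, number tested in brackets), with the list median as a red bar and values beyond 3 drawn at 3. Most medians lie near 0, the natural killer markers at 2.02 and the interferon list at 0.40, and all points of the mitochondrially encoded list lie below 0.

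Cell cycle and survival genes held single genes with a small p. Mki67, the proliferation marker Ki-67, was at 0.765 to 6.89 CPM in CON mice and 8.10, 9.12, 10.3, 5.83 and 7.19 CPM in RES mice (log2 fold change 0.98, standard error 0.41). Top2a, a topoisomerase of dividing cells, had one of 0.84 (0.32), while the 21 genes of the list had a median of 0.08 with 12 higher and 9 lower. Bcl6, the repressor that drives germinal centre B cells, was lower, at 110 ± 19.3 and 83.2 ± 14.0 CPM. Among 22 survival genes, Bcl2 was at 50.9 ± 8.65 CPM in CON and 66.6 ± 9.62 CPM in RES mice (log2 fold change 0.39, standard error 0.16). Bcl2l1, the gene of Bcl-xL, was at 9.49 ± 1.97 and 18.6 ± 10.5 CPM. RES library 40 had 36.0 CPM of it and was also highest of the RES group in red cell genes such as Alas2, and whether these go together was not tested.

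Target genes of the stress hormones showed no common direction. Of 23 tested genes of the glucocorticoid receptor and its targets, 10 were higher and 13 lower in RES mice, with a median of -0.02. Without RES library 43, 17 were lower with a median of -0.073, and without CON library 38 the median was -0.11. Fkbp5, a chaperone that glucocorticoids induce, was at 17.4 ± 3.61 CPM in CON and 15.8 ± 3.76 CPM in RES mice (log2 fold change -0.14, 95% interval -0.56 to 0.28). Tsc22d3, the gene of the glucocorticoid-induced leucine zipper, had a log2 fold change of 0.22 (-0.10 to 0.54), Per1 one of -0.08 (-0.43 to 0.26) and the receptor gene Nr3c1 one of -0.22. Sgk1, a kinase gene that glucocorticoids induce, was the only member with an unadjusted p under 0.05, at 28.6 ± 4.60 CPM in CON and 21.6 ± 3.76 CPM in RES mice (log2 fold change -0.40, standard error 0.15). Cxcr4, the receptor that retains B cells in bone marrow, was at 158 ± 35.7 and 212 ± 67.8 CPM (log2 fold change 0.43, standard error 0.22, unadjusted p 0.0646), and RES library 37, at 131 CPM, lay below the CON median.

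In the adrenergic and cAMP list, 15 of 20 genes were lower with a median of -0.11 (12 of 20 and -0.046 without RES library 40). Prkaca, the catalytic subunit of protein kinase A, was the only one with an unadjusted p under 0.05, at 33.9 ± 4.80 and 26.2 ± 2.42 CPM. Of the clock genes, Bhlhe40, a repressor of Per transcription, lay at 8.69 to 13.2 CPM in CON mice and 7.34, 6.23, 7.25, 7.80 and 6.61 CPM in RES mice with no overlap (log2 fold change -0.54, standard error 0.23). Rora, a nuclear receptor, had 0 counts in all 5 RES libraries and 0 to 79 counts in the CON libraries.

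Early activation genes gave values on both sides of 0. Egr1 and Egr3, zinc finger factors that antigen receptor signals induce, were at 8.98 ± 4.46 and 32.8 ± 8.5 CPM in CON mice. In RES mice they were at 4.84 ± 2.40 and 23.7 ± 6.57 CPM. They were the only 2 of 23 genes with an unadjusted p under 0.05 (all genes 1.37% lower at that p). Fos (log2 fold change 0.06, 95% interval -0.43 to 0.54) and Cd69 (-0.11, -0.58 to 0.36), an early activation antigen, were close to 0, and the list median was -0.09. Tnf, a cytokine gene on the NF-kappaB list, was at 7.83 ± 2.52 and 4.33 ± 1.55 CPM (log2 fold change -0.85, standard error 0.33).

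**Figure D5:**
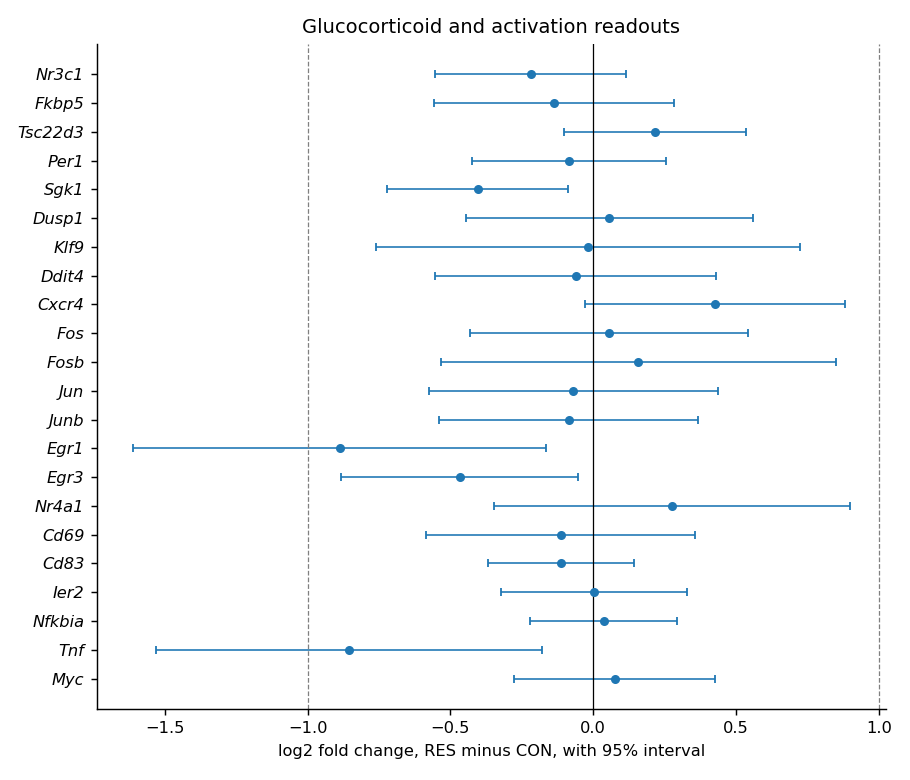
Log2 fold change between RES and CON B cells with its 95% interval (horizontal axis) for glucocorticoid and activation readouts (vertical axis); dashed lines mark a log2 fold change of 1 in each direction. Fkbp5, Per1, Fos and Cd69 have intervals that include 0 and stay inside the dashed lines, while Egr1 is at -0.89 and Sgk1 at -0.40.

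The interferon response list stood away from 0, through 1 library. Of its 35 tested genes 29 were higher in RES mice, with a median of 0.40. Among these, 7 had an unadjusted p under 0.05 (all genes 1.8% higher at that p). Usp18, a negative regulator of interferon signalling, was at 4.93 to 10.9 CPM in CON mice and at 13.5, 24.7, 8.96, 14.3 and 8.72 CPM in RES mice. Rsad2, the antiviral enzyme viperin, was at 7.05 to 21.4 CPM in CON mice and at 16.1, 72.7, 40.1, 12.8 and 22.8 CPM in RES mice. Library 40 was the highest in both. Without it, 22 of 35 genes were higher, 0 had an unadjusted p under 0.05 and the median was 0.12.

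The 13 protein genes of the mitochondrial genome were all lower in RES mice (median -0.50), and the median hung on 1 library. Of the 13 genes, 4 had an unadjusted p under 0.05 (all genes 1.37% lower at that p). mt-Co3, a subunit of cytochrome oxidase, was at 327 to 1077 CPM in CON mice with a median of 411, and at 395, 373, 328, 278 and 364 CPM in RES mice. The highest value belonged to CON library 38, and without that library 11 of 13 genes were lower, the median was -0.09 and 0 had an unadjusted p under 0.05. The number under that p was also 0 without RES library 43 or RES library 46, where all 13 genes stayed lower. Without CON library 47 it was 10. The nuclear-encoded subunits of oxidative phosphorylation, 74 tested, had a median of -0.06, and of 0.028 without CON library 38. Heat shock proteins and chaperones were lower in 15 of 18 genes (median -0.11). Of the lower genes 3 had an unadjusted p under 0.05 (all genes 1.37% lower at that p). Without CON library 50, 11 of 18 were lower with a median of -0.058, and without CON library 47 the median was -0.20 with 5 genes under that p. Among them Chordc1, a cochaperone of Hsp90, was at 17.2 to 50.2 CPM in CON and 24.9, 25.6, 16.2, 19.1 and 13.9 CPM in RES mice.

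Antigen presentation genes had medians close to 0. Of 16 genes of the MHC class II list 15 had a positive log2 fold change, but the median was 0.11 (0.047 without RES library 43) and 0 had an unadjusted p under 0.05. H2-Aa was at 2316 ± 238 CPM in CON and 2495 ± 287 CPM in RES mice, and Cd74, the invariant chain, had a log2 fold change of 0.07 (95% interval -0.20 to 0.33). The MHC class I list had a median of 0.03 over 15 genes (-0.055 without RES library 43) and glycolysis of 0.04 over 17. The 83 ribosomal protein genes had a median of 0.001, but this rested on CON library 38. Without that library 79 of 83 were higher in RES mice, 18 of them at an unadjusted p under 0.05, with a median of 0.15, and without RES library 46 the number higher was 61, with a median of 0.063. Of 22 homing receptors 1 had an unadjusted p under 0.05, Ccr6, a chemokine receptor of mature B cells, at 68.8 ± 6.08 CPM in CON and 81.0 ± 7.83 CPM in RES mice. Toll-like receptors and their adaptors, 19 genes, had a median of 0.02 and 0 genes under that p. Mmp8, the collagenase of neutrophils and monocytes that the study followed, did not reach the level for testing, with 0 to 4 counts in CON libraries and 0, 2, 2, 1 and 24 counts in RES libraries.

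SUS and RES mice, both of which had been defeated, were compared in the same fit. edgeR called 0 of 17620 genes (0%), the smallest adjusted p was 1, and 240 genes (1.36%) had an unadjusted p under 0.05; DESeq2 called 0. Serpinb7 had 1.94 ± 1.14 CPM in SUS mice (n = 6) against 0.556 ± 0.198 CPM in RES mice (log2 fold change 1.79, standard error 0.58). Bcat2, an enzyme of branched-chain amino acid breakdown, had 15.2 ± 2.37 CPM in SUS mice and 22.6 ± 2.03 CPM in RES mice (log2 fold change -0.58, standard error 0.16). Cd93 was at 11.1 ± 2.80 CPM in SUS mice, 0.18 above RES mice on the log2 scale (standard error 0.21), and Cplx2 and Akap12 were at 5.64 ± 1.27 and 53.8 ± 12.2 CPM, with differences of 0.23 (0.28) and 0.14 (0.17). A p that misses the threshold does not show that SUS and RES mice were alike in these genes.

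Whether the difference between RES and CON mice was particular to B cells was tested against T cells of the same series (6 CON and 5 RES libraries) in one fit over all sorted cells. The log2 fold change differed at an adjusted p under 0.05 in 5 of 24248 genes (0.0206%). Of these Arhgap39, a GTPase activating protein, was measured well in both cell types: its log2 fold change was 0.63 in B cells and -0.50 in T cells, a difference of 1.14 (standard error 0.22, adjusted p 0.0116 in edgeR). In B cells its median count in CON libraries was 364.5. Trim30b had a difference of -3.32 (0.57), with a log2 fold change of 0.02 in B cells, where 892 to 2292 counts were found. In T cells it had 0 to 9 counts in CON and 5 to 83 counts in RES libraries, so the difference rests on a group near 0. Gm44752, Rora and Mocos were likewise at or near 0 counts in 1 of the groups compared. With the B cell and T cell libraries alone in the fit, 0 genes passed, against 1134 at an unadjusted p under 0.05. Among the genes that were named for B cells, Fcer1g differed from T cells by 1.76 (0.52) with an adjusted p of 0.266.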

How the data were processed

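The authors sequenced total RNA from sorted cells (500 pg, stranded total RNA kit, paired reads of 150 bases), aligned the reads to mm10 with HISAT2 and counted them per gene with htseq-count against an Ensembl annotation; they tested with DESeq2. They deposited whole-number counts of 52636 genes in 70 libraries, and every column was mapped to a sample by its name (0 columns left over). Gene names, types and positions came from GENCODE M21 (GRCm38), which held 52489 of the identifiers.

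From these counts, edgeR 4.0.16 (R 4.3.3) was fitted to the B cell libraries of CON, SUS and RES mice without library 52, with filterByExpr, TMM factors and robust quasi-likelihood dispersions. SUS libraries entered so that all groups shared 1 estimate of the spread. A gene was called at a Benjamini-Hochberg adjusted p under 0.05 and a log2 fold change beyond 1, the threshold of the study. The standard error was the log2 fold change over the root of the F statistic. Library measures were compared by two-sided exact permutation tests (smallest possible p 0.00433). No 2 of the 11 libraries were identical (55 pairs, correlation of log2 CPM within groups 0.942 to 0.974). Replicate numbers are library numbers and are not shared between groups.

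Named were, since no gene passed, up to 12 protein-coding genes in each direction with the smallest p and a mean of at least 50 counts over CON and RES libraries, and from each list the members with the smallest p and the usual readouts; other members and Mmp8 were added for their role. From the other 2 contrasts up to 5 genes a direction were eligible. The members of the comparison and all lists were chosen with earlier results of these data known, and the immunoglobulin constant and variable lists after seeing the data. Alternatives were DESeq2 1.42.0, limma 3.58.1 (voom), other size factors, other filters, CON and RES libraries alone, library 52 kept, genes of mitochondria, hemoglobin and ribosomal RNA removed, each library left out, pseudocounts of 0.1 and 1 CPM in place of 0.5, and, chosen after seeing the data, edgeR without robust estimation and covariates for NK markers and for ribosomal RNA. The scripts were tested on simulated data. The removal of PCR copies is not given in the sources used here, so counts need not be separate molecules. A few named genes are not reported here.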

Additional observations from a re-analysis of the deposited data

Results flagged for a closer look

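The library labelled as RES B cells number 52 had 412 CPM of Cd3e, a T cell gene, and library 70, labelled as RES T cells, had 1417 CPM of Cd79a, a B cell gene. Both stood outside the levels of every other library of their label, and neither entered the comparisons.

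In 11 of the 212 sets of values examined (levels of named genes, marker sums and library measures, each within the 6 CON or the 5 RES libraries), the highest or lowest library stood apart from the others; chance gives about 1 in 20 sets. On the scale log2(CPM + 0.5), Socs3 was at 2.95 in RES library 40 against 4.13 in the nearest other RES library, and S100a9 at 0.128 in RES library 43 against -0.912. In CON library 47, Cd93 was at 3.82 (nearest 4.38), Pgm1 at 4.24 (3.34) and Ccr6 at 6.34 (6.12). In CON library 44, Cplx2 was at 4.14 (3.43), Anxa2 at 1.54 (2.69) and the log2 of the summed platelet markers at 4.86 (5.23). In CON library 38, mt-Nd3 was at 6.89 (5.94). Mki67 was at 0.34 in CON library 35 (2.16), and Birc3 at 7.66 in CON library 50 (7.91). Without its own library, each of these genes kept an adjusted p above 0.05 in edgeR.

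Between B cells and T cells the log2 fold change of RES against CON mice differed by 6.63 in Gm44752, -3.32 in Trim30b, -9.21 in Rora, 1.14 in Arhgap39 and 7.61 in Mocos, each at an adjusted p under 0.05 in edgeR's test of the difference. Rora had 0 counts in all RES B cell libraries and Mocos 0 counts in all CON B cell libraries, so their fitted values are no measure of size. Gm44752 had 0 to 1 counts in the RES T cell libraries and Trim30b 0 to 9 counts in the CON T cell libraries.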

How the results depend on the processing

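No gene was called in 7 of the 8 planned settings (limma voom among them), in the 11 fits without 1 library or in the 3 settings added after seeing the data. DESeq2, the other planned setting, called 11 genes, which were also its genes at an adjusted p under 0.05. The 560 genes at an unadjusted p under 0.05 became 955 by DESeq2, 2727 with no filter on low counts (28826 genes tested) and 942 with the NK marker mean as a covariate, and lay between 509 and 686 without single libraries. Between SUS and RES mice 0 genes were called in all settings run. The 5 genes that differed between B and T cells became 0 with only those cells in the fit, 1 with at least 10 counts in every library and 786 with libraries 52 and 70 kept.

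Of 94 named genes, 15 changed sign in some setting; the cause was not tested. By voom, the log2 fold changes were 0.12 in Cd69 and 1.515 in Jchain. With library 52 kept they were 0.38 in Fkbp5, -0.061 in Fos, -0.197 in Cd74, -0.155 in H2-Aa, 0.22 in Erap1, 0.091 in Arrb2 and 3.08 in Rora. With the NK covariate they were -0.21 in Gzma, 0.14 in Cd79a, 0.41 in Fkbp5, 0.57 in Per1, 1.45 in Jchain, 0.089 in Spib, 0.17 in Egr3 and -3.17 in S100a9. Gzma is itself a member of that covariate. Without single libraries they ranged from -0.15 to 0.00068 in Per1, -0.27 to 0.17 in Cd69, -0.044 to 0.15 in Fos, -1.001 to 0.23 in Jchain, -0.0079 to 0.12 in Cd74 and -0.0052 to 3.80 in S100a9. Without single libraries Cd93 lay between -1.27 and -1.002, with adjusted p of 0.0748 to 1 in edgeR. With the NK covariate it was at -1.38 (adjusted p 0.917 in edgeR). Its adjusted p was 0.465 by voom and 0.00512 by DESeq2. With library 52 kept it was at -1.31 (adjusted p 0.602 in edgeR), but that library carried T cell markers, so this value is not one of B cells alone.

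Depth limits genes under 1 CPM, as most NK markers are in CON mice. Library 38 decided the mitochondrial and ribosomal protein medians and library 40 the interferon median, and both moved the red cell list. No paired analysis was possible because each replicate number belongs to 1 library.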
